A study of Mus musculus with 17 samples.

Results

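Gene expression in 32D cells that carried the human wild-type FLT3 receptor was compared with that in 32D cells without it. 32D is an immortalized mouse myeloblast-like cell line that needs the cytokine IL-3 to grow. Of the 17 arrays of the study, 8 entered the comparison: 4 of cells with wild-type FLT3 and 4 without the receptor. The receptor-free arrays were 2 of parental, non-transduced cells and 2 of cells with the empty retroviral vector pLXRN. The receptor arrays were 2 of cells with FLT3 alone and 2 of cells with FLT3 grown with FLT3 ligand at 20 ng/mL. Mouse IL-3 was added at 1 ng/mL to parental, vector and wild-type cultures, per the growth protocol in the labels. That protocol leaves unstated whether the ligand cultures kept IL-3, and the titles of these samples could mean that FLT3 ligand was the transduced gene, where the protocol names it as an addition to the medium; the protocol was followed here. The other 9 arrays each came from a different FLT3 mutant with an internal tandem duplication (ITD), an activating change found in leukaemia, and these lines grew without IL-3. They were not compared with the other arrays, and their values are given as a description, but they entered the fit and supplied 8 of its 12 residual degrees of freedom.

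The vector and FLT3 lines were selected with the antibiotic G418 and kept as populations of many clones, whereas parental cells were neither transduced nor selected. All 4 receptor arrays, with and without ligand, were treated here as 1 wild-type line, and the receptor-free arrays as 2 lines. Paired arrays are titled as biological replicates, and the titles do not say whether these were separate transductions. The standard errors and p-values below therefore rest mostly on the spread between the 9 mutant lines, and otherwise on that within the pairs, which may be technical. An effect of the receptor and any other difference of the receptor cells cannot be told apart.

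FLT3 is a receptor with tyrosine kinase activity on early blood progenitors. When its ligand binds, the receptor pairs up, phosphorylates itself and passes signals through RAS and ERK, through PI3 kinase and AKT, and, for ITD mutants above all, through STAT5. IL-3 signals in 32D cells through its own receptor, whose beta chain also uses STAT5 and ERK, so the receptor-free cells are stimulated cells and not resting ones.

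Measurements were log2 signals, and each gene was valued as the mean over its probe sets, so a difference of 1 is a 2-fold change of the signal. Flt3 itself was examined first, because it checks the labels. Flt3 read 5.37 and 5.12 in parental cells, 5.15 and 5.24 with the vector, 6.73 and 6.79 with wild-type FLT3, and 6.89 and 6.88 with ligand added. All 4 receptor arrays lay above all 4 receptor-free arrays, and the 9 ITD arrays ran from 7.08 to 7.32 (median 7.12). The difference was 1.60 ± 0.08 (log2, receptor minus receptor-free, with the standard error of the fit; adjusted p = 5.67e-09, limma with Benjamini-Hochberg adjustment). Flt3 had 19 used probe sets, of which 15 were higher on average in the receptor cells and 6 were higher on every receptor array than on every receptor-free array. In the other direction, 1 probe set was lower on every receptor array than on every receptor-free array. The largest rise of a single probe set was 8.20. The probes were designed for mouse transcripts and the introduced receptor was human, so the gene's mean gives no level of the receptor in the cells.

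Across 20227 genes, 4372 (21.6%) differed between receptor and receptor-free cells at an adjusted p under 0.05, 3026 higher (15%) and 1346 lower (6.65%). The 4 receptor arrays all lay above the 4 receptor-free arrays in 3534 genes (17.5%) and all below them in 1624 (8.03%), together 25.5% of genes. Both conditions held for 2703 higher genes (13.4%) and 1101 lower genes (5.44%), together 18.8%. Most of these differences were small, with a median size of 0.542. At least 1 on the log2 scale was reached by 226 higher and 204 lower genes, and at least 2 by 16 higher and 39 lower genes, so the largest differences were more often falls.

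Both the number and the balance of calls depend on how the arrays are treated. After a further quantile normalization 4225 genes were called, 2245 higher and 1980 lower, so that 53.1% were higher against 69.2% in the values as deposited, and non-overlapping genes numbered 2735 higher and 2355 lower. When each of the 12 lines counted as 1 sample, 54 genes (0.267%) were called, 38 higher and 16 lower, while 2243 had an unadjusted p under 0.05. All 54 were among the genes above, and 89 of the 99 genes chosen by rule for description lost their call. The 10 that kept it were Flt3, Ccn3, Gemin6, Lrp12, Dusp6 and Etv5 among those that rose, and Epx, Cpa3, Cd9 and Pik3ip1 among those that fell.

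The receptor-free lines were not alike. Between arrays of a pair, gene values correlated across genes with r from 0.983 to 0.986, whereas parental and vector arrays correlated with a median r of 0.967. Vector arrays were as near to the receptor arrays (median r of 0.965 with and without ligand) as to parental ones, and parental arrays were farther from them (0.949 without and 0.953 with ligand); genes are not independent replicates. In 66.1% of the 3804 genes that were called without overlap, the vector mean was nearer than the parental mean to the receptor mean, against 52.8% of all genes. Many genes below therefore ran in steps from parental through vector to receptor cells. What the vector line and the receptor line share that parental cells lack, the retroviral vector and G418, cannot be told apart from other differences between lines. Leaving out the parental arrays left 2397 called genes, and leaving out the vector arrays left 3535.

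**Figure D1:**
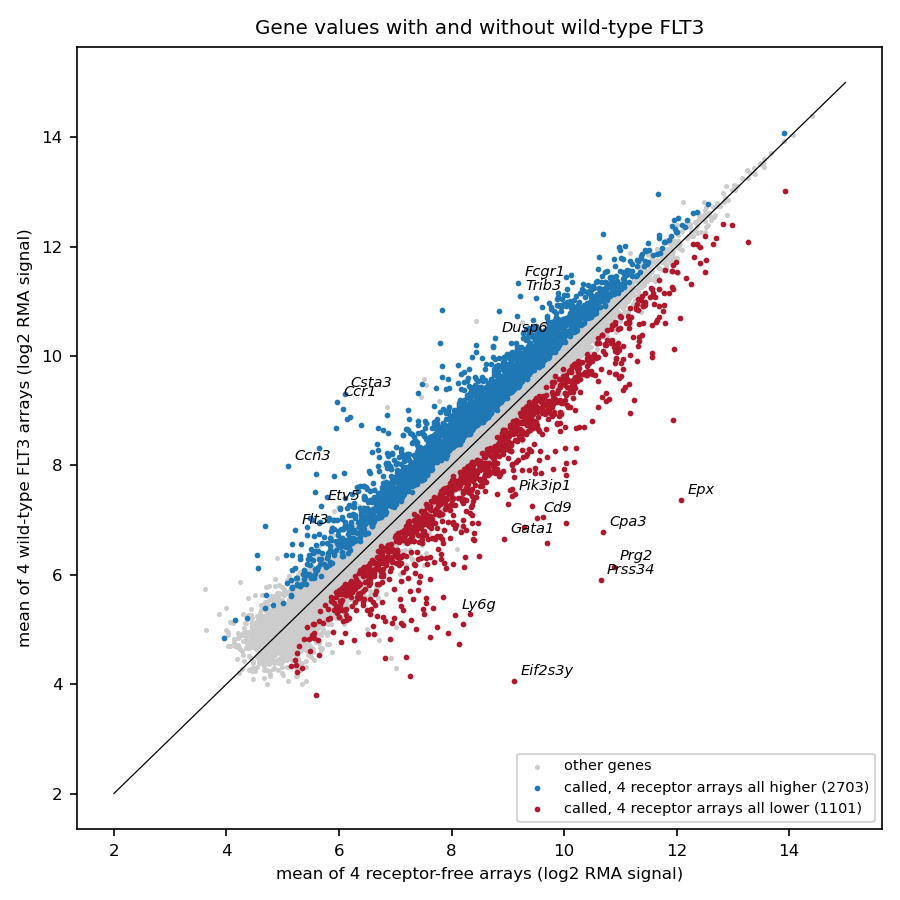
Each point is 1 of 20227 genes, with its mean over the 4 receptor-free arrays on the x axis and its mean over the 4 wild-type FLT3 arrays on the y axis (both log2 signal), and the line marks equal values. Genes called at an adjusted p under 0.05 whose arrays did not overlap are coloured, 2703 higher in blue and 1101 lower in red, and the points farthest from the line lie below it, among them Eif2s3y, Prss34, Prg2 and Epx.

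Rises and falls were ranked among called, non-overlapping genes with at least 3 probe sets, with predicted or unnamed gene models passed over. In this ranking the 15 largest rises ran from 1.97 to 3.21, and the genes with the 3 largest were Csta3, Ccr1 and Ccn3. Csta3 encodes a stefin, an inhibitor of cysteine proteases. Csta3 read 5.33 and 4.30 in parental cells, 7.61 and 7.15 with the vector, 8.93 and 8.80 with wild-type FLT3, and 9.68 and 9.84 with ligand added, a difference of 3.21 ± 0.36 (adjusted p = 1.13e-05). The vector arrays stood between parental and receptor cells, and the ITD arrays ran from 3.94 to 6.08 (median 4.76), below every vector array.

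Ccr1, the receptor for several inflammatory CC chemokines, read 5.78 and 4.67 in parental cells, 6.74 and 6.67 with the vector, 9.57 and 9.41 with wild-type FLT3, and 8.69 and 8.92 with ligand added. Its difference was 3.18 ± 0.39 (adjusted p = 2.19e-05), and the ITD arrays ran from 4.65 to 6.54 (median 5.85), below every receptor array. Ccn3, a secreted protein of the matricellular CCN family, read 4.96 and 4.84 in parental cells, 5.37 and 5.24 with the vector, 7.76 and 7.74 with wild-type FLT3, and 8.18 and 8.28 with ligand added. For Ccn3 parental and vector cells were close together, the ITD arrays ran from 4.49 to 5.70 (median 5.03), and the difference of 2.89 ± 0.19 (adjusted p = 7.2e-08) kept its call with lines as samples.

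Lrp12, a surface protein related to the LDL receptor, read 8.56 and 8.41 in parental cells, 9.21 and 9.21 with the vector, 10.63 and 10.69 with wild-type FLT3, and 10.98 and 10.98 with ligand added. It rose by 1.97 ± 0.13 (adjusted p = 7.2e-08), again with all ITD arrays, 8.83 to 9.53 (median 9.12), below the receptor arrays. Gemin6, a subunit of the SMN complex that assembles spliceosomal particles, read 7.07 and 6.40 in parental cells, 7.06 and 6.86 with the vector, 8.69 and 8.44 with wild-type FLT3, and 9.08 and 9.48 with ligand added. The ITD arrays of Gemin6 ran from 7.63 to 8.79 (median 8.36) and lay above all receptor-free arrays and partly within the range of the receptor arrays; its difference was 2.07 ± 0.22 (adjusted p = 5.46e-06).

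Nupr1, a small nuclear protein induced by cell stress, read 7.22 and 6.99 in parental cells, 8.56 and 8.42 with the vector, 9.96 and 10.0 with wild-type FLT3, and 10.53 and 10.46 with ligand added. It rose by 2.44 ± 0.30 (adjusted p = 2.36e-05) in steps, with vector cells between parental and receptor cells, and the ITD arrays ran from 8.83 to 10.76 (median 9.17). Cp, the copper protein ceruloplasmin, showed the same steps with most of the gap between parental and vector cells. Its means were 3.98 in parental and 7.32 in vector cells, against 8.41 and 8.21 in receptor cells without and with ligand, so that the difference of 2.66 ± 0.55 (adjusted p = 0.00198) fell to 0.99 without the parental arrays and was then no longer called.

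The remaining large rises were Ddc (2.73 ± 0.32), aromatic amino acid decarboxylase; Tespa1 (2.69 ± 0.39); the stefin Csta2 (2.69 ± 0.38); and Lgmn (2.34 ± 0.33), the lysosomal protease legumain. Tnfsf8, the ligand of CD30, rose by 2.25 ± 0.39, and Fcgr1, the high-affinity receptor for IgG, by 2.16 ± 0.30. Cd2ap, an adaptor of the actin cytoskeleton, rose by 1.99 ± 0.14, and Dusp2, a nuclear phosphatase of MAP kinases, by 1.98 ± 0.34. Their adjusted p-values ran from 8.48e-08 for Cd2ap to 0.00051 for Tnfsf8. All receptor arrays lay above all receptor-free arrays in each of them, and without the parental arrays Lgmn and Dusp2 stood at 1.23 and 1.12 and were not called. The 3 probe sets of Csta2 disagreed. On every receptor array 2 of them were higher, and 1 was lower, than on every receptor-free array.

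**Figure D2:**
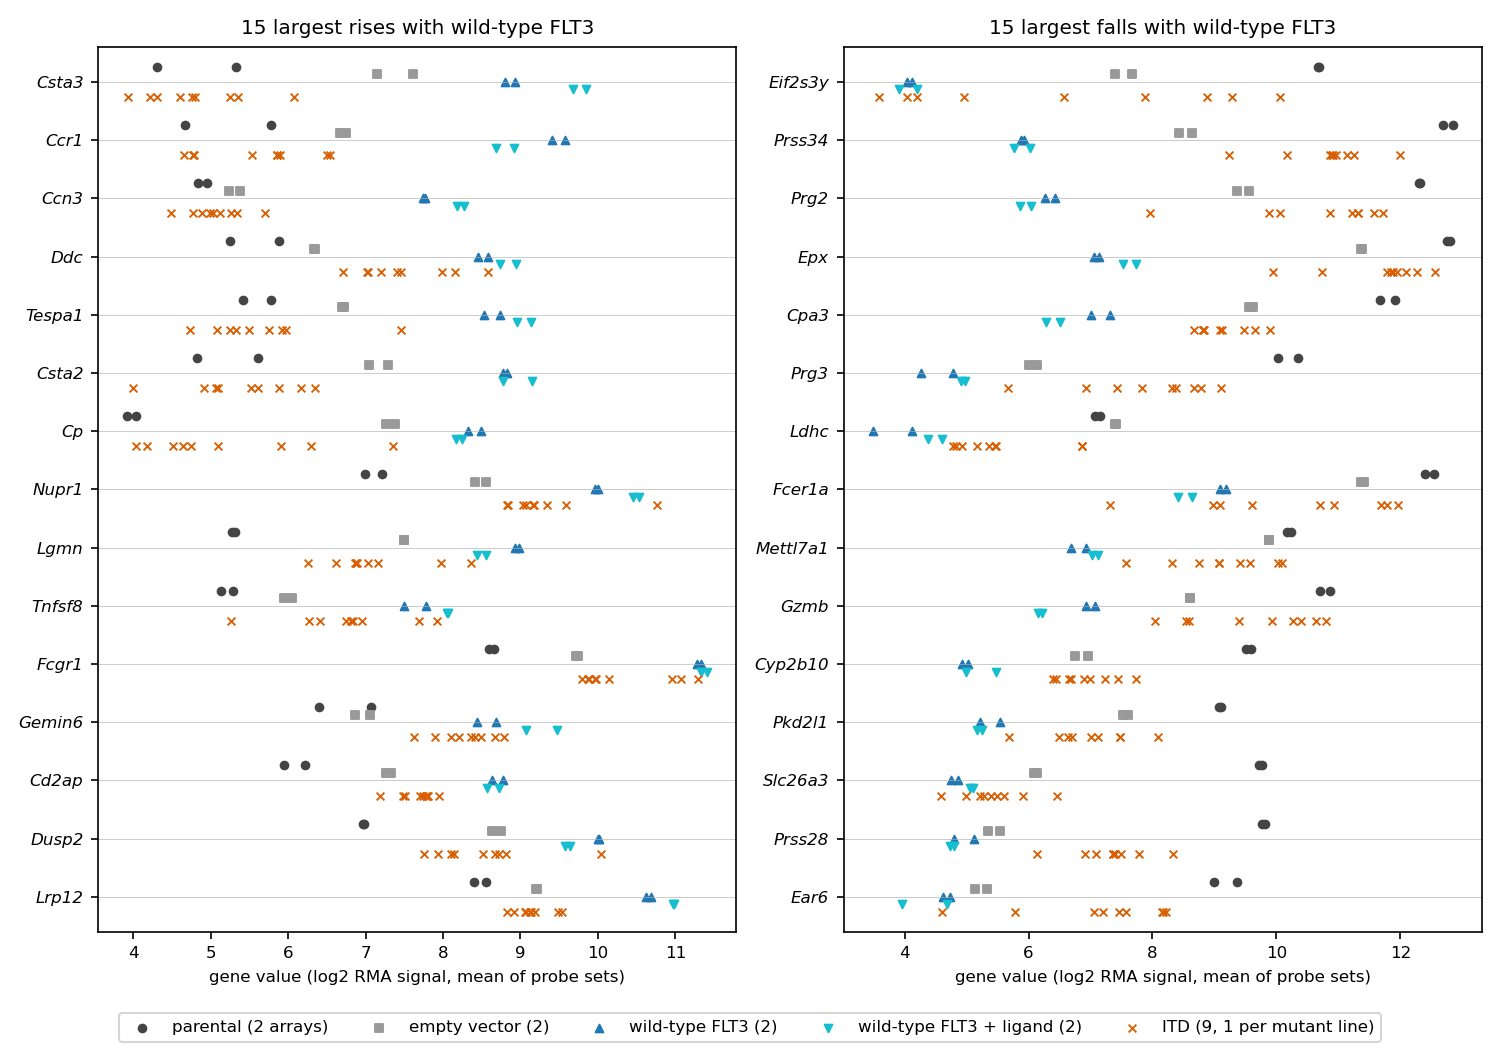
Log2 gene values on every array for the 15 largest rises (left) and the 15 largest falls (right) among called, non-overlapping genes with at least 3 probe sets; each symbol is 1 array. In the genes that rose, the 4 wild-type FLT3 arrays (blue and cyan) lie right of the parental (black) and vector (grey) arrays, and in those that fell they lie left of them, with the ITD arrays (orange) often nearer to the receptor-free cells, as for Ccn3 and Epx.

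The FLT3 adaptor and damper list held proteins that couple the receptor to its pathways or limit its signal. Of its 17 measured members, 2 rose and 5 fell (15% and 6.65% of all genes), with a median difference of -0.25 against 0.02 over all genes. After quantile normalization 1 was higher and 10 were lower. Sla2, an adaptor that dampens receptor signals, read 8.84 and 8.95 in parental cells, 8.27 and 8.19 with the vector, 9.86 and 9.91 with wild-type FLT3, and 9.27 and 9.16 with ligand added. It rose by 0.99 ± 0.25 (adjusted p = 0.00928), the ITD arrays ran from 9.35 to 11.04 (median 10.17), and without the vector arrays it stood at 0.65 and was not called. Flt3l, the mouse gene of the FLT3 ligand, rose by 0.47 ± 0.13.

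Ptprj, a receptor phosphatase known to act on FLT3, read 9.63 and 9.39 in parental cells, 9.20 and 9.21 with the vector, 8.64 and 8.52 with wild-type FLT3, and 8.61 and 8.71 with ligand added. All receptor arrays lay below all receptor-free arrays, and the ITD arrays, 8.90 to 9.46 (median 9.18), lay above them and reached into the receptor-free range; the difference was -0.74 ± 0.10 (adjusted p = 8.18e-05). The kinase Syk differed by -0.77 ± 0.19, and without the parental arrays the difference was as large (-0.75) but not called. Inpp5d, the lipid phosphatase SHIP1 that opposes PI3 kinase, differed by -0.55 ± 0.09, Gab2 by -0.42 ± 0.12 and Grb2 by -0.62 ± 0.18, all called lower.

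Among the 16 genes of the ERK feedback and target list, 9 rose and none fell (15% and 6.65% of all genes), the other 7 were not called, and the median difference was 0.38. These genes are switched on by ERK, and several of them encode proteins that switch it off again. Dusp6, the phosphatase of ERK in the cytoplasm, read 8.70 and 8.73 in parental cells, 8.81 and 8.90 with the vector, 10.29 and 10.28 with wild-type FLT3, and 10.38 and 10.37 with ligand added. Parental and vector cells were within 0.14 of each other in their means, and the ITD arrays, 9.72 to 10.41 (median 10.16), overlapped the receptor arrays. The difference was 1.55 ± 0.14 (adjusted p = 1.32e-06), and Dusp6 kept its call with lines as samples.

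Etv5, a transcription factor of the ETS family induced by ERK, read 5.46 and 5.35 in parental cells, 5.88 and 6.03 with the vector, 7.56 and 7.39 with wild-type FLT3, and 7.02 and 7.08 with ligand added. It rose by 1.58 ± 0.13 (adjusted p = 6.32e-07), and the ITD arrays ran from 7.18 to 7.75 (median 7.31), all above the receptor-free arrays. Spred2 and Spred1 encode inhibitors of RAF activation, and they rose by 1.04 ± 0.11 and 0.81 ± 0.09. The nuclear phosphatase Dusp4 read 7.73 and 7.49 in parental cells, 7.13 and 7.23 with the vector, 8.22 and 8.0 with wild-type FLT3, and 8.42 and 8.23 with ligand added, a difference of 0.82 ± 0.24 (adjusted p = 0.018). The ITD arrays of Dusp4, 8.44 to 9.71 (median 9.0), lay above all 8 other arrays, and its call was lost without parental replicate 2 (as numbered in the labels), without replicate 1 of the vector, wild-type or ligand pair, and without all vector arrays (0.61).

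The immediate early factor Egr1 rose by 0.61 ± 0.14, Ier3 by 0.81 ± 0.18, Spry2 by 0.38 ± 0.10 and Etv4 by 0.37 ± 0.11. The means of Egr1 went from 6.06 to 6.67, with 7.83 over the ITD arrays, whereas Ier3 went from 8.98 to 9.79 and had an ITD mean of 8.77. Dusp5 was highest in the vector cells, with means of 7.25 in parental, 8.0 in vector, 7.49 in wild-type and 7.47 in ligand-treated cells, and it was not called (-0.15 ± 0.17). Spry4 was not called either, but its receptor arrays, 5.43 to 5.49, all lay below the receptor-free arrays, 5.55 to 5.82. The other genes of the list without a call were Spry1, Etv1, Fosl1, Phlda1 and Ccnd1. With lines as samples, 2 genes of the list were called, Dusp6 and Etv5.

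Of the 15 STAT5 targets measured, 9 rose and 1 fell (15% and 6.65% of all genes), with a median difference of 0.47. Cish, a feedback inhibitor of cytokine receptors, read 8.23 and 8.16 in parental cells, 8.91 and 8.78 with the vector, 9.25 and 9.14 with wild-type FLT3, and 9.73 and 9.66 with ligand added. Its difference of 0.92 ± 0.23 (adjusted p = 0.00688) became 0.60 without the parental arrays and was not called, and the ITD arrays ran from 8.09 to 9.58 (median 9.32). The cytokine gene Osm rose by 0.73 ± 0.17 and Bcl2l1, which encodes the survival protein BCL-XL, by 0.62 ± 0.12. Id1 rose by 0.62 ± 0.13, Socs3 by 0.52 ± 0.15, Socs2 by 0.41 ± 0.12 and Pim1 by 0.39 ± 0.09.

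Bcl6, a transcriptional repressor that STAT5 is known to hold down, read 8.41 and 8.11 in parental cells, 8.39 and 8.43 with the vector, 7.55 and 7.34 with wild-type FLT3, and 7.04 and 7.05 with ligand added. All receptor arrays lay below all receptor-free arrays, by -1.09 ± 0.26 (adjusted p = 0.00572), and the ITD arrays lay lower still for the most part, from 6.24 to 7.66 (median 6.63). Il2ra, a chain of the IL-2 receptor, had the largest difference of the list, 2.21 ± 0.81, but was not called (adjusted p = 0.0632). Its values were 4.53 and 5.06 in parental cells, 8.94 and 8.92 with the vector, 8.89 and 8.71 with wild-type FLT3, and 9.22 and 9.46 with ligand added, so the vector and receptor arrays overlapped and parental cells stood apart. Without the parental arrays 1 STAT5 target was called higher and 1 lower, and after quantile normalization 6 were higher and 1 lower. With lines as samples limma called none, and 4 of the 15 had an unadjusted p under 0.05.

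FOXO factors, which AKT keeps out of the nucleus, had 10 measured targets on their list. Of these 1 was called, a share below the 21.6% of all genes. Pik3ip1, an inhibitor of PI3 kinase, read 9.23 and 9.24 in parental cells, 8.95 and 8.88 with the vector, 7.56 and 7.70 with wild-type FLT3, and 7.14 and 7.37 with ligand added. It differed by -1.64 ± 0.10 (adjusted p = 7.2e-08), the ITD arrays ran from 7.37 to 7.80 (median 7.65) within or near the range of the receptor arrays, and the call held with lines as samples. The list's median was -0.04, and Txnip, Klf2 and Sesn1 differed by 0.27, -0.07 and 0.08, none of them called.

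**Figure D3:**
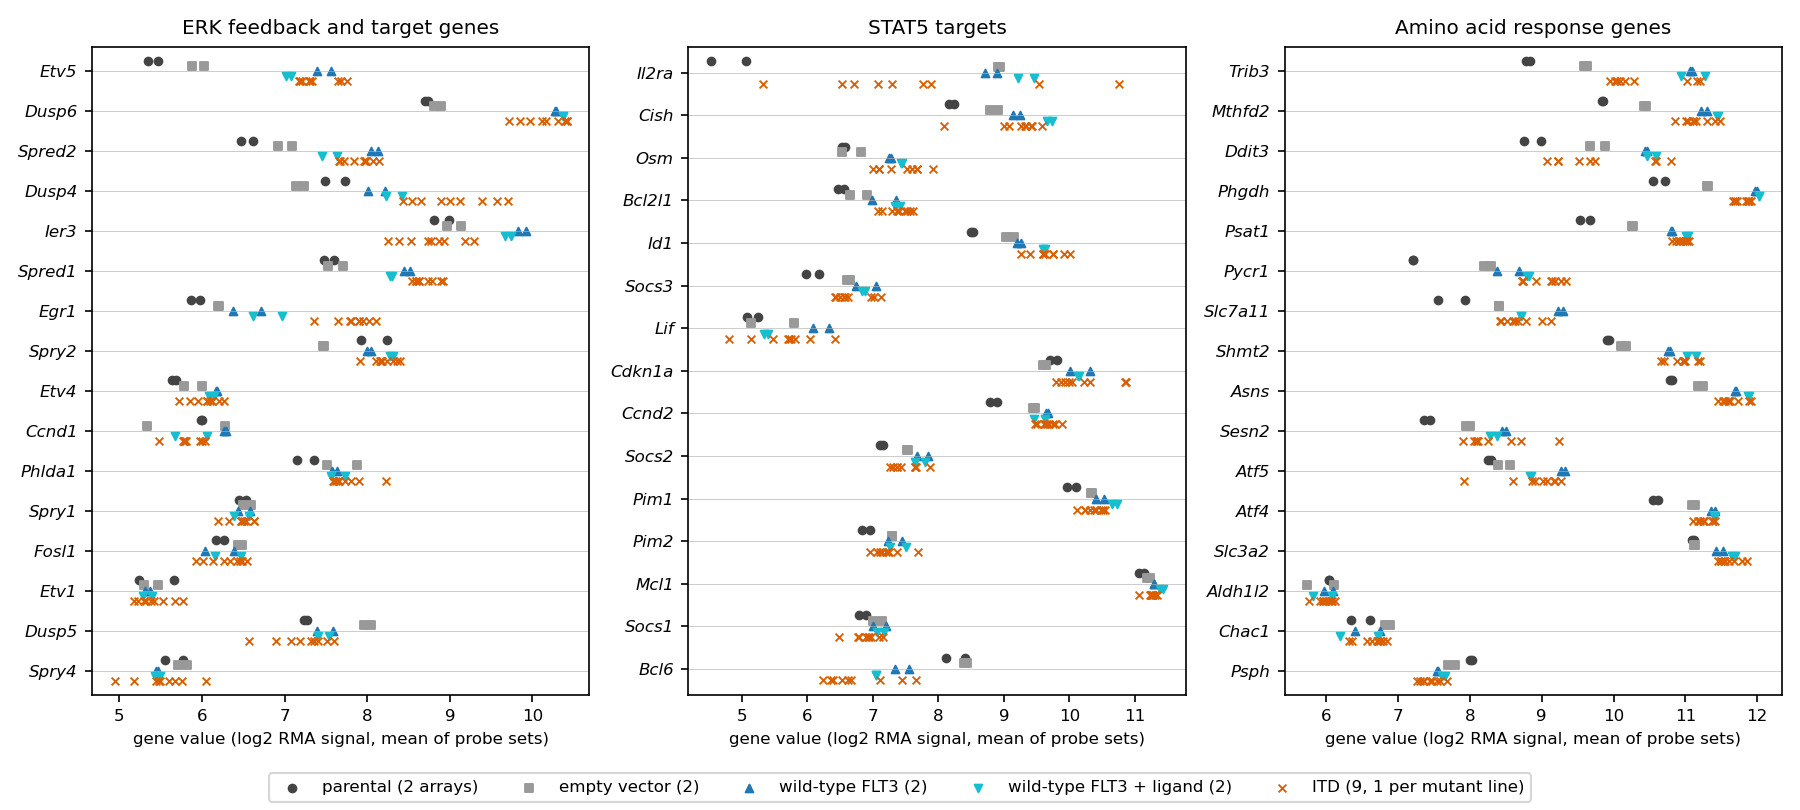
Log2 gene values on every array for the ERK feedback and target list (left), the STAT5 targets (middle) and the amino acid response list (right), each ordered by the size and sign of the difference. In Dusp6 and Etv5 the parental (black) and vector (grey) arrays lie below the receptor (blue, cyan) and ITD (orange) arrays. Parental and vector arrays lie close together in Dusp6, whereas in Etv5 the vector arrays lie higher. In Cish, Phgdh and Asns the vector arrays lie between parental and receptor cells.

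Genes of eosinophils, basophils and mast cells held most of the largest falls. Of the 8 eosinophil genes measured, 6 fell and none rose, with a median of -2.03, and of the 16 mast cell and basophil genes, 10 fell and none rose, with a median of -1.0. Over all genes the median was 0.02 and 6.65% were lower. In bulk samples, fewer cells of such a type and less RNA per cell cannot be told apart. The mean level over the eosinophil genes was 7.05 to 9.01 on the receptor-free arrays, 5.50 to 5.71 on the receptor arrays and 6.33 to 8.20 on the ITD arrays.

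Epx, eosinophil peroxidase, read 12.81 and 12.76 in parental cells, 11.38 and 11.36 with the vector, 7.14 and 7.05 with wild-type FLT3, and 7.53 and 7.74 with ligand added. The difference was -4.71 ± 0.41 (adjusted p = 9.81e-07), and Epx kept its call with lines as samples. Receptor cells stood far below both receptor-free lines, and the ITD arrays, 9.94 to 12.56 (median 11.88), lay above every receptor array, 7 of them within the receptor-free range and lines 4 and 5 below it. Prg2, the major basic protein of eosinophil granules, read 12.32 and 12.30 in parental cells, 9.37 and 9.56 with the vector, 6.43 and 6.27 with wild-type FLT3, and 5.86 and 6.04 with ligand added, and it differed by -4.73 ± 0.59 (adjusted p = 2.94e-05). The ITD arrays of Prg2 ran from 7.96 to 11.71 (median 11.23), and all but the lowest lay in the receptor-free range.

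Prg3, a relative of Prg2, and Ear6, an eosinophil-associated ribonuclease, split the receptor-free lines. Prg3 read 10.35 and 10.03 in parental cells, 6.13 and 6.0 with the vector, 4.78 and 4.27 with wild-type FLT3, and 4.91 and 4.98 with ligand added. Ear6 read 9.37 and 8.99 in parental cells, 5.13 and 5.32 with the vector, 4.73 and 4.62 with wild-type FLT3, and 3.96 and 4.68 with ligand added. In both, vector cells were nearer to receptor cells than to parental cells, so that the differences of -3.40 ± 0.54 and -2.70 ± 0.61 came mainly from the parental arrays and became -1.33 and -0.73 without them, neither called. Ear6 belongs to a family of near-identical genes, and signal from its relatives on the same probes cannot be told apart.

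Prss34, a serine protease of basophils, read 12.85 and 12.69 in parental cells, 8.65 and 8.43 with the vector, 5.88 and 5.93 with wild-type FLT3, and 6.02 and 5.77 with ligand added. It differed by -4.75 ± 0.38 (adjusted p = 5.22e-07), again in steps, and the ITD arrays ran from 9.24 to 11.99 (median 10.92). Cpa3, the carboxypeptidase of mast cell granules, read 11.92 and 11.67 in parental cells, 9.63 and 9.55 with the vector, 7.32 and 7.01 with wild-type FLT3, and 6.29 and 6.50 with ligand added, a difference of -3.91 ± 0.23 (adjusted p = 3.41e-08). Cpa3 kept its call with lines as samples, and its ITD arrays, 8.68 to 9.89 (median 9.08), lay above every receptor array.

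Fcer1a, the ligand-binding chain of the IgE receptor, read 12.54 and 12.41 in parental cells, 11.42 and 11.37 with the vector, 9.18 and 9.08 with wild-type FLT3, and 8.40 and 8.64 with ligand added. It differed by -3.10 ± 0.78 (adjusted p = 0.00821) and had the widest range among the mutants of the eosinophil, mast cell and basophil genes given here, with ITD arrays from 7.31 to 11.97 (median 10.71). Gzmb, granzyme B, differed by -3.10 ± 0.51 and Mcpt8, a basophil protease, by -1.58 ± 0.34. Without the parental arrays Fcer1a and Gzmb still differed by -2.57 and -2.01 but were not called. Gata2, a transcription factor of progenitors and mast cells, differed by -1.29 ± 0.13 with an ITD mean of 9.98, above the receptor mean of 8.62. Kit, the receptor that mast cells depend on, had group means from 5.50 to 5.75. Without the parental arrays 2 eosinophil genes and 4 mast cell and basophil genes were called lower, and with lines as samples Epx and Cpa3 alone.

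The erythroid and megakaryocyte list fell in 7 of 11 measured members (6.65% of all genes), with none higher and a median of -0.91. Gata1, a transcription factor of erythroid, megakaryocyte, eosinophil and mast cells, read 9.55 and 9.48 in parental cells, 8.43 and 8.28 with the vector, 6.68 and 6.32 with wild-type FLT3, and 6.83 and 6.79 with ligand added. Receptor arrays lay below vector arrays and those below parental ones, a difference of -2.28 ± 0.27 (adjusted p = 1.38e-05), and the ITD arrays ran from 7.55 to 9.38 (median 9.01). Klf1, the erythroid Krüppel-like factor, differed by -1.79 ± 0.25, Epor, the erythropoietin receptor, differed by -1.42 ± 0.16, and Gfi1b, a repressor of the same lineages, by -1.14 ± 0.23. The GATA1 partner Zfpm1 and the integrin Itga2b differed by -0.91 ± 0.23 and -0.96 ± 0.17. Without the parental arrays 2 of these genes were called, and Klf1 (-1.0) and Gfi1b (-0.82) were not.

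IL-3 binds a specific alpha chain, Il3ra, and a shared beta chain, Csf2rb, to which mice add Csf2rb2, a near-identical beta chain used by IL-3 alone. Csf2rb2 read 11.88 and 11.71 in parental cells, 10.70 and 10.69 with the vector, 9.20 and 8.91 with wild-type FLT3, and 9.28 and 9.39 with ligand added. Its difference was -2.05 ± 0.21 (adjusted p = 4.87e-06), with ITD arrays from 9.39 to 10.87 (median 10.20). Csf2rb read 11.51 and 11.41 in parental cells, 10.61 and 10.52 with the vector, 9.65 and 9.53 with wild-type FLT3, and 9.62 and 9.77 with ligand added, a difference of -1.37 ± 0.27 (adjusted p = 0.00129). The same order from parental to receptor cells was seen in both, and probes that match both copies cannot tell them apart.

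Il3ra read 10.06 and 10.25 in parental cells, 9.21 and 9.13 with the vector, 8.92 and 9.09 with wild-type FLT3, and 9.07 and 8.69 with ligand added, a difference of -0.72 ± 0.13 (adjusted p = 0.00054). The lowest vector array and the highest receptor array of Il3ra were 9.13 and 9.09, so parental cells stood apart from the other 6 arrays. Csf2rb stood at -0.93 without the parental arrays and was not called. Of the 12 cytokine receptor genes measured, 4 rose and 3 fell (15% and 6.65% of all genes), with a median of -0.15. The rises were Il2rb (1.12 ± 0.16), Il4ra (0.79 ± 0.21), Il2rg (0.69 ± 0.11) and Ifnar1 (0.34 ± 0.11). Il2rb had means of 5.29 in parental, 6.48 in vector, 7.09 in wild-type and 6.91 in ligand-treated cells, and without the parental arrays its difference of 0.52 was not called.

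The largest fall among the ranked genes, those with at least 3 probe sets, was in Eif2s3y, a Y-linked gene of a translation initiation factor. Eif2s3y read 10.68 and 10.69 in parental cells, 7.39 and 7.67 with the vector, 4.11 and 4.04 with wild-type FLT3, and 3.90 and 4.20 with ligand added. The difference was -5.04 ± 1.23 (adjusted p = 0.00676), and the ITD arrays were spread over the whole range, from 3.59 to 10.06 (median 6.57). Kdm5d, a Y-linked histone demethylase, read 8.10 and 7.92 in parental cells, 5.79 and 5.84 with the vector, 4.89 and 4.90 with wild-type FLT3, and 4.54 and 4.94 with ligand added, a difference of -2.09 ± 0.44 (adjusted p = 0.00228), with ITD arrays from 4.90 to 7.23. Of 9 Y-linked protein-coding genes with a value, these 2 were lower, 6 were not called and Usp9y was higher (0.43 ± 0.14, limma, adjusted p = 0.0431). The rise of Usp9y was at a low signal, from 5.2 to 5.6 on receptor-free and 5.8 to 5.9 on receptor arrays. Neither of its 2 probe sets was by itself higher on every receptor array than on every receptor-free array. Eif2s3y and Kdm5d ran in the same order as many eosinophil and basophil genes, highest in parental, lower in vector and lowest in receptor cells, and their part in the other differences was not tested. Without the parental arrays Eif2s3y still differed by -3.47, with the nearest vector and receptor arrays 3.19 apart, but was not called; the ITD arrays, which are part of the fit, had a standard deviation of 2.50.

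**Figure D4:**
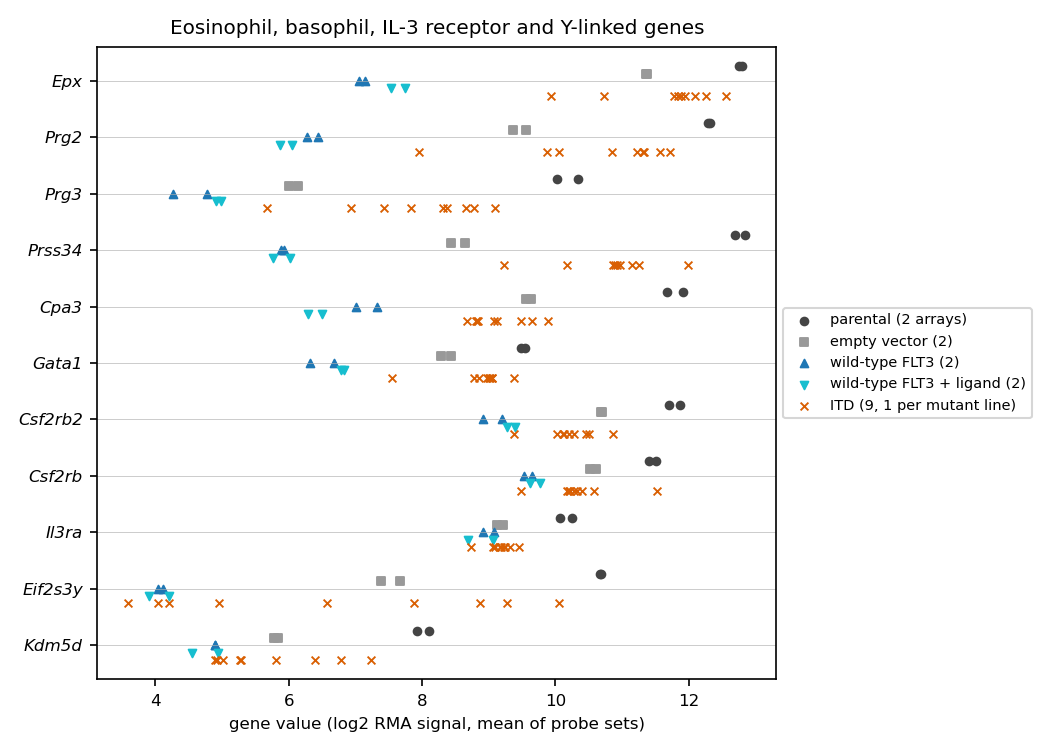
Log2 gene values on every array for eosinophil and basophil genes, Gata1, the IL-3 receptor chains and Y-linked genes; each symbol is 1 array. Receptor arrays (blue and cyan) lie lowest among the 8 compared arrays in every gene, with little distance to the vector arrays (grey) in Il3ra, vector arrays lie between them and parental arrays (black), and ITD arrays (orange) lie between 3.59 and 10.06 for Eif2s3y.

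Neutrophil granule genes included members higher and lower. Primary granules, filled at the promyelocyte stage, had 8 measured genes, of which 1 rose and 4 fell (15% and 6.65% of all genes), with a median of -0.53. Prtn3, proteinase 3, read 12.56 and 12.41 in parental cells, 12.59 and 12.58 with the vector, 11.38 and 11.40 with wild-type FLT3, and 12.11 and 12.12 with ligand added. Its difference was -0.78 ± 0.22 (adjusted p = 0.0141), and cells with FLT3 alone read lower than those with ligand. The difference of Prtn3 stayed near this size without the parental (-0.83) and without the vector arrays (-0.73), where it was not called. Prss57, a serine protease of the same granules, read 11.20 and 11.21 in parental cells, 11.26 and 11.25 with the vector, 9.88 and 9.94 with wild-type FLT3, and 10.72 and 10.83 with ligand added, a difference of -0.89 ± 0.20 (adjusted p = 0.00374). Ms4a3 and Lyz2 differed by -0.58 ± 0.16 and -0.55 ± 0.17, whereas Serpinb1a, an inhibitor of neutrophil proteases, rose by 0.80 ± 0.17. Mpo and Ctsg, myeloperoxidase and cathepsin G, differed by -0.50 ± 0.24 and -0.17 ± 0.07 and were not called.

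Of 24 late granule and mature neutrophil genes, 2 rose and 5 fell (15% and 6.65% of all genes), with a median of -0.09. Ly6g, the surface antigen of mouse neutrophils, read 7.90 and 8.23 in parental cells, 8.16 and 7.98 with the vector, 5.43 and 5.50 with wild-type FLT3, and 4.82 and 5.30 with ligand added. It differed by -2.81 ± 0.33 (adjusted p = 1.39e-05) from 2 probe sets, with parental and vector cells close together and ITD arrays from 3.72 to 5.81 (median 4.66). Trem1, an activating receptor of neutrophils and monocytes, read 6.75 and 6.78 in parental cells, 6.93 and 7.05 with the vector, 8.92 and 8.86 with wild-type FLT3, and 8.20 and 8.40 with ligand added. It rose by 1.72 ± 0.29 (adjusted p = 0.000371), and the ITD arrays, 4.40 to 6.27 (median 5.74), lay below all 8 others.

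Chil1, a chitinase-like protein of specific granules, differed by -1.46 ± 0.20, Camp, the cathelicidin, by -1.44 ± 0.21, Cxcr2 by -1.13 ± 0.36 and Ngp by -0.94 ± 0.30. Camp stood at -0.81 without the parental arrays and was not called. S100a8 and S100a9 had receptor arrays above all receptor-free arrays but were not called (0.32 ± 0.36 and 0.70 ± 0.32).

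Stefins and cystatins, inhibitors of cathepsins, rose in 5 of 8 measured genes and fell in 2 (15% and 6.65% of all genes), with a median of 1.25. Stfa2, measured by 1 probe set, read 5.16 and 3.60 in parental cells, 7.72 and 7.83 with the vector, 8.81 and 8.51 with wild-type FLT3, and 9.34 and 9.51 with ligand added, a difference of 2.97 ± 0.57 (adjusted p = 0.00108). Stfa2l1 rose by 1.60 ± 0.26 and Csta1 by 0.90 ± 0.22, while Cst7 and Cst3 differed by -1.02 ± 0.24 and -0.48 ± 0.12. Without the parental arrays Cst7 stood at 0.36, and no gene of the list was called lower. In the stefins most of the step lay between parental and vector cells, the genes are near-identical copies whose signals cannot be fully told apart, and 2 of the 8, but neither Stfa2 nor Stfa2l1, were called higher without the parental arrays.

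Of 19 monocyte and macrophage genes, 3 rose and 4 fell, with a median of 0.06; of all genes, 15% were higher and 6.65% lower, so the share higher was near that of all genes. Fcgr1 rose as given above, Ctss, cathepsin S, had means of 5.23 in parental and 9.82 in vector cells against 9.69 and 9.48 in receptor cells, and Cd14 rose by 0.83 ± 0.17. The vector cells held the highest mean of Ctss, so its call (2.06 ± 0.41, adjusted p = 0.00164) rested on the low parental arrays, and without them the difference was -0.24. Clec7a, the fungal receptor dectin-1, read 8.51 and 8.48 in parental cells, 6.63 and 6.34 with the vector, 5.31 and 5.31 with wild-type FLT3, and 5.53 and 5.37 with ligand added, a difference of -2.11 ± 0.33 (adjusted p = 0.000213) that became -1.11 without the parental arrays and was not called. Mpeg1, perforin-2 of macrophages, differed by -1.38 ± 0.26 and Csf1r, the receptor for M-CSF, by -0.42 ± 0.09. Csf1r, a receptor kinase of the same class as FLT3, had receptor arrays from 6.08 to 6.56 and receptor-free arrays from 6.70 to 6.82.

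Chemokines, cytokines and their receptors moved both ways, with 4 of 16 higher, 5 lower (15% and 6.65% of all genes) and a median of -0.05. Tnf, tumour necrosis factor, read 6.79 and 6.52 in parental cells, 8.12 and 8.19 with the vector, 9.46 and 9.43 with wild-type FLT3, and 9.10 and 9.34 with ligand added. It rose by 1.93 ± 0.23 (adjusted p = 1.49e-05), and the ITD arrays, 6.63 to 7.97 (median 7.10), lay below all receptor arrays. Cxcr4, the receptor that holds progenitors in bone marrow, read 11.36 and 11.36 in parental cells, 10.62 and 10.57 with the vector, 9.62 and 9.53 with wild-type FLT3, and 9.60 and 9.61 with ligand added, a difference of -1.39 ± 0.15 (adjusted p = 6e-06) with ITD arrays from 9.87 to 10.57 (median 10.39). Ccl6 and Ccl9 encode related chemokines of myeloid cells. They differed by -1.65 ± 0.37 and -1.03 ± 0.22, and Il1b by -0.82 ± 0.22.

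Of 17 myeloid and progenitor transcription factors, 3 rose, a share near the 15% of all genes, and 5 fell (6.65% of all genes), with a median of 0.06 that became -0.05 after quantile normalization. Myb, a factor of proliferating progenitors, read 11.31 and 11.33 in parental cells, 11.31 and 11.34 with the vector, 10.08 and 9.94 with wild-type FLT3, and 10.34 and 10.42 with ligand added. The nearest receptor and receptor-free arrays were 0.89 apart, the ITD arrays ran from 10.64 to 11.31 (median 11.13), and the difference was -1.13 ± 0.14 (adjusted p = 3.5e-05). Cebpa, a factor of granulocyte commitment, read 9.83 and 10.13 in parental cells, 9.89 and 9.93 with the vector, 9.01 and 9.15 with wild-type FLT3, and 8.86 and 8.74 with ligand added, a difference of -1.01 ± 0.11 (adjusted p = 1.17e-05). Parental and vector cells were close together in both genes.

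Runx1 differed by -1.03 ± 0.19, Cebpe by -0.55 ± 0.15 and Spi1, the gene of PU.1, by -0.38 ± 0.10. Egr2, an immediate early factor, read 5.63 and 5.36 in parental cells, 5.60 and 5.37 with the vector, 6.95 and 6.59 with wild-type FLT3, and 7.43 and 7.15 with ligand added. It rose by 1.54 ± 0.23 (adjusted p = 0.000121), with ITD arrays from 6.33 to 7.63 (median 7.28), and its relative Egr3 rose by 0.56 ± 0.16. Myc rose by 0.30 ± 0.10 with overlap between arrays. Runx1 stood at -0.64 without the parental arrays and was not called.

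Integrins, tetraspanins and selectin ligands, which hold cells to matrix and to each other, fell in 9 of 17 genes (6.65% of all genes) and rose in none, with a median of -0.39. Cd9, a tetraspanin, read 9.64 and 9.50 in parental cells, 9.49 and 9.45 with the vector, 6.92 and 6.95 with wild-type FLT3, and 7.16 and 7.12 with ligand added. Its difference of -2.48 ± 0.12 (adjusted p = 5.67e-09) kept its call with lines as samples, parental and vector cells were close together, and the ITD arrays, 9.15 to 9.93 (median 9.66), lay above all receptor arrays and reached past the receptor-free range on both sides. The integrin chains Itgb3, Itga6 and Itga4 differed by -1.53 ± 0.36, -1.11 ± 0.12 and -0.96 ± 0.16, and Cd44, a receptor for hyaluronan, by -0.95 ± 0.13. Without the parental arrays 4 of the 17 were called lower, Itgb3 and Itga4 not among them, and after quantile normalization 13.

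The other large falls had no common role. Ldhc, the lactate dehydrogenase of germ cells, read 7.16 and 7.07 in parental cells, 7.41 and 7.40 with the vector, 3.48 and 4.12 with wild-type FLT3, and 4.38 and 4.61 with ligand added, a difference of -3.11 ± 0.41 (adjusted p = 4.77e-05). Mettl7a1, a methyltransferase-like protein, read 10.17 and 10.23 in parental cells, 9.88 and 9.88 with the vector, 6.68 and 6.92 with wild-type FLT3, and 7.02 and 7.13 with ligand added, and it differed by -3.10 ± 0.40 (adjusted p = 4.11e-05). For both genes parental and vector cells were close together. Slc26a3, an anion exchanger, Cyp2b10, a cytochrome P450, and Pkd2l1, a channel of the polycystin family, differed by -2.98 ± 0.27, -3.10 ± 0.24 and -3.03 ± 0.35. In these the vector arrays lay between parental and receptor cells, as they did for the protease Prss28 (-2.76 ± 0.31). Vector cells were nearer to receptor than to parental cells in Slc26a3, Cyp2b10 and Prss28. Without the parental arrays the differences of these genes were -1.17, -1.75 and -0.58, and that of Pkd2l1 was -2.27.

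The amino acid response list held the genes that ATF4 switches on when amino acids are short, together with enzymes of serine and one-carbon metabolism. Of its 16 genes 13 rose and 1 fell, with a median of 0.84, where 15% of all genes were higher and 6.65% lower. After quantile normalization 11 rose, and without the parental arrays 9. With lines as samples limma called none, and 10 of the 16 had an unadjusted p under 0.05. ATF4 acts through a composite element whose core, TGATGNAA (N being any base), was searched on both strands in the 250 bases before each gene start, in promoters from RefSeq (GRCm38.p6). The motif stood in 3.45% of 32851 promoter windows. Promoters were found for 15 of the 16 genes, in 17 windows, and 4 of these genes held the motif. They are shown with that of Nupr1, which is not on the list and was among the largest rises, because these are the promoters where the letters were found; capitals mark the motif or its reverse complement, and each stretch is given on the gene's strand.
Asns (chr6:7693210-7693262, minus strand): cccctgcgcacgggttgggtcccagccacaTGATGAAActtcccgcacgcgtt
Chac1 (chr2:119351019-119351086, plus strand): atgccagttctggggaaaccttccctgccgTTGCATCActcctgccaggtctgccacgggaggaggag
Pycr1 (chr11:120643814-120643881, minus strand): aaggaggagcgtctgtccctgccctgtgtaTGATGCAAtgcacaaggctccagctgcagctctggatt
Slc7a11 (chr3:50443623-50443709, minus strand): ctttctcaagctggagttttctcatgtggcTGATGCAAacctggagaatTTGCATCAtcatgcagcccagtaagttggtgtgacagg
Nupr1 (chr7:126625543-126625610, minus strand): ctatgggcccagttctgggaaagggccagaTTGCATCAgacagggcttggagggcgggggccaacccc

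Asns, asparagine synthetase, held the motif 23 bases before its start and had means of 10.80 in parental, 11.21 in vector, 11.70 in wild-type and 11.88 in ligand-treated cells, a rise of 0.79 ± 0.09. Pycr1, an enzyme of proline synthesis, and Slc7a11, the cystine transporter with the motif 66 and 47 bases before its start, rose by 0.94 ± 0.14 and 0.91 ± 0.14. Chac1, an enzyme that breaks down glutathione, held the motif as well and differed by -0.15 ± 0.14, which was not called. A match of these letters does not show that ATF4 bound there, and a gene without a match may be bound outside the window.

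Phgdh catalyses the entry step of serine synthesis. Phgdh read 10.55 and 10.72 in parental cells, 11.32 and 11.30 with the vector, 11.97 and 11.99 with wild-type FLT3, and 12.03 and 12.02 with ligand added, a difference of 1.03 ± 0.07 (adjusted p = 7.2e-08) with ITD arrays from 11.66 to 11.91 (median 11.84). Trib3, a pseudokinase induced by ATF4 and CHOP, read 8.84 and 8.78 in parental cells, 9.63 and 9.59 with the vector, 11.07 and 11.10 with wild-type FLT3, and 11.27 and 10.94 with ligand added. It rose by 1.88 ± 0.27 (adjusted p = 9.12e-05), and its ITD arrays ran from 9.95 to 11.21 (median 10.17). In both genes the order from parental through vector to receptor cells was the reverse of that in the eosinophil genes.

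Mthfd2, a mitochondrial enzyme of the folate cycle, read 9.83 and 9.86 in parental cells, 10.43 and 10.45 with the vector, 11.22 and 11.30 with wild-type FLT3, and 11.44 and 11.45 with ligand added, a difference of 1.21 ± 0.11 (adjusted p = 1.53e-06). Psat1 and Shmt2, the enzymes beside it in serine and glycine synthesis, rose by 0.98 ± 0.06 and 0.89 ± 0.10. Atf4 itself rose by 0.55 ± 0.07 and Ddit3, which encodes CHOP, by 1.17 ± 0.33. The call of Ddit3 was lost without parental replicate 2, vector replicate 1, wild-type replicate 1 or ligand replicate 2. Psph, the last enzyme of serine synthesis, went the other way (-0.29 ± 0.09).

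The cell cycle list had 6 of 20 genes higher (15% of all genes) and none lower, with a median of 0.18. Without the ligand arrays 2 were called higher, and the median was 0.009. Aurka, a kinase of the mitotic spindle, read 10.26 and 10.14 in parental cells, 10.45 and 10.43 with the vector, 11.10 and 11.02 with wild-type FLT3, and 11.40 and 11.38 with ligand added, a difference of 0.90 ± 0.14 (adjusted p = 0.000199). Bub1, a checkpoint kinase, rose by 0.77 ± 0.16, Cdk1 by 0.57 ± 0.10 and Ccna2, cyclin A2, by 0.55 ± 0.14. In Bub1, Cdk1 and Ccna2 the vector cells had lower means than the parental cells, and Ccna2 (0.36) was not called without the vector arrays. Of 15 genes of cholesterol synthesis 1 rose and 3 fell (15% and 6.65% of all genes), with a median of -0.07, and the falls of Insig1 (-0.82 ± 0.17) and Dhcr7 (-0.69 ± 0.14) became -0.51 and -0.40 without the parental arrays and were not called.

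The interferon response list fell in 7 of 14 genes (6.65% of all genes) and rose in none, with a median of -0.58, but the vector line stood apart. Rtp4, an interferon-induced gene, had means of 5.24 in parental, 9.80 in vector, 6.12 in wild-type and 6.23 in ligand-treated cells. Usp18, which limits interferon signalling, had means of 6.76, 9.44, 6.32 and 6.64 in the same order. Without the vector arrays 1 gene of the list was called higher and none lower, with a median of 0.33, and without the parental arrays 11 were lower. Stat2 (-0.60 ± 0.10) and Bst2 (-0.43 ± 0.09) did not overlap between the 4 and 4 arrays, and became -0.37 and -0.12 without the vector arrays, neither called. Rtp4 was called lower (-1.34 ± 0.36) and stood at 0.94 without them.

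Of the 7 genes on the list of MHC class II presentation 2 rose and none fell (15% and 6.65% of all genes). H2-Ea, a class II gene not on this list, differed by -2.05 ± 0.20 (limma, adjusted p = 3.33e-06). It kept its call with lines as samples, and was added here after its values were seen. H2-DMb1 rose by 0.65 ± 0.12 from 2 probe sets, and Cd74, the invariant chain, read 5.71 and 5.39 in parental cells, 9.54 and 9.54 with the vector, 9.76 and 9.70 with wild-type FLT3, and 9.27 and 9.16 with ligand added. The vector and receptor arrays of Cd74 overlapped, and its difference of 1.93 ± 0.54, which was called, became -0.07 without the parental arrays. Handling stress, a list of genes that respond quickly when cells are collected, had 2 of 11 genes higher and none lower, with a median of 0.22, a share higher near the 15% of all genes. Those were Ier2 (0.91 ± 0.13) and Atf3 (1.08 ± 0.29; 0.76 and not called without the parental arrays), while Fos and Jun differed by 0.22 ± 0.41 and -0.51 ± 0.47 and were not called. Their part in the other differences was not tested.

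Markers of the cell types the cultures could hold were examined as well. Of the 6 myeloblast markers measured, Prtn3, Ctsg and Mpo had group means from 11.39 to 12.59, from 12.25 to 12.47 and from 11.45 to 12.60. Kit and Cd34 had group means from 5.50 to 5.75 and from 5.44 to 5.68, where the array medians over all probe sets were 4.63 to 4.69. B cell markers were lower in 1 of 4 genes (Cd79b, -0.71 ± 0.18), T and NK cell markers in 1 of 6 (Nkg7, -0.99 ± 0.21) and fibroblast and endothelial markers in 1 of 6 (Pecam1, -0.40 ± 0.07), with no marker higher. Of all genes 6.65% were lower and 15% higher, and in lists this short 1 call cannot be set apart from these shares. Ms4a1, the gene of CD20 on B cells, had group means from 4.60 to 5.24, Cd3e of T cells had group means from 6.07 to 6.30, and Col1a1 of fibroblasts from 6.76 to 6.90.

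**Figure D5:**
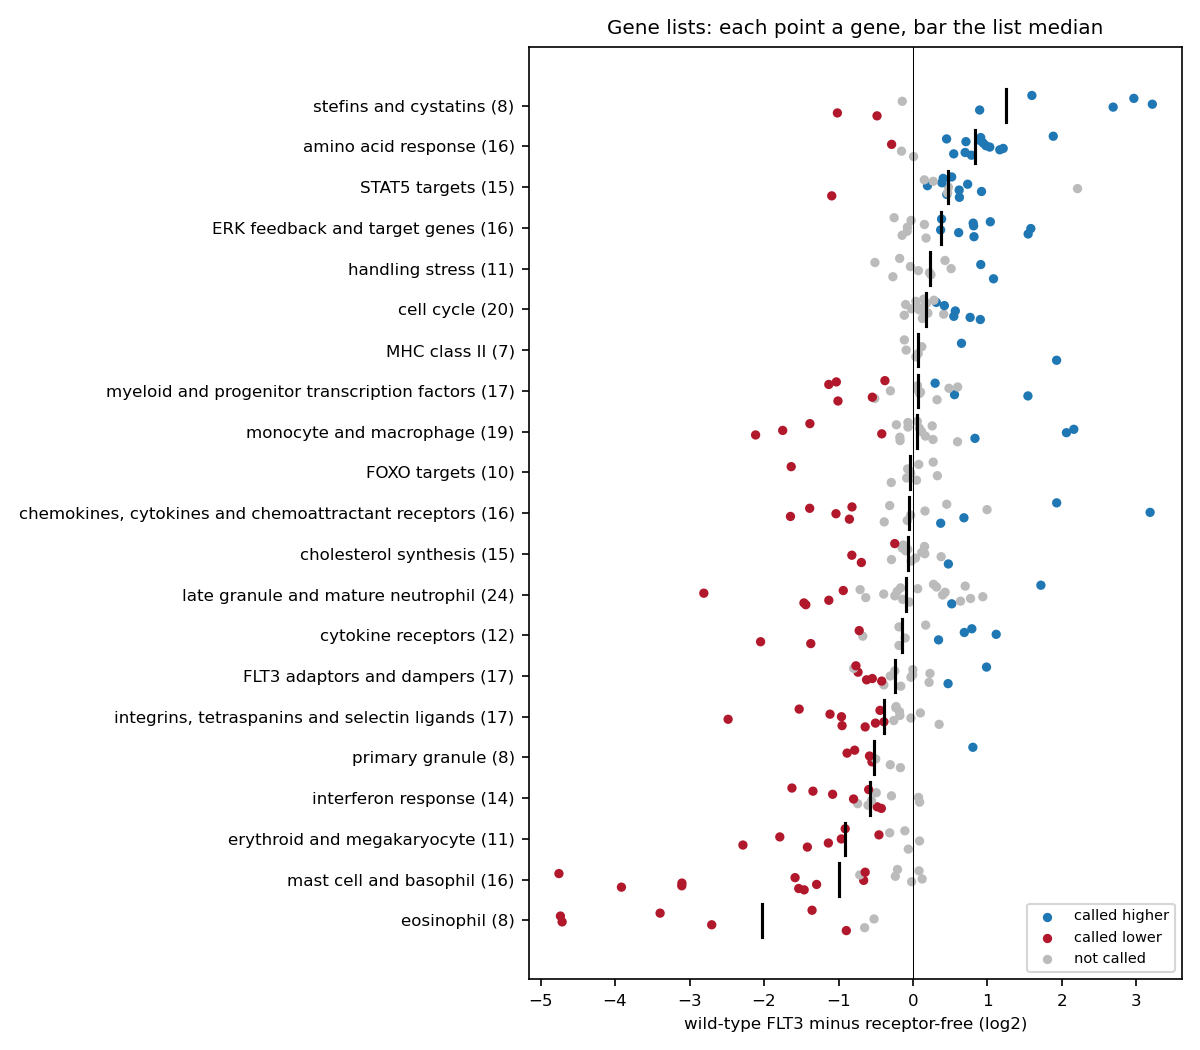
Difference between receptor and receptor-free cells (log2, x axis) for every measured gene of the 21 lists, with 1 point per gene, coloured where it was called, and a bar at the median of each list; the number of measured genes stands in brackets. The stefins and cystatins (5 of 8 higher, median 1.25) and the amino acid response (13 of 16 higher, median 0.84) have the highest medians, eosinophil (6 of 8 lower) and mast cell and basophil genes (10 of 16 lower) the lowest, and most other lists hold genes on both sides of 0.

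The 2 kinds of receptor array were close. Between cells with and without ligand 0 genes were called (limma; 1555, or 7.69%, at an unadjusted p under 0.05; smallest adjusted p = 0.141). With the 8 arrays alone, whose spread leaves out the mutants, 1148 genes were called. Among genes called and non-overlapping against the receptor-free cells, the largest ligand differences were in Tgm2, Tfec, Kcnk5 and Avil. Tgm2, tissue transglutaminase, read 12.60 and 12.65 in parental cells, 12.42 and 12.39 with the vector, 12.22 and 12.16 with wild-type FLT3, and 10.91 and 10.87 with ligand added. Cells with FLT3 alone lay just below the receptor-free arrays and cells with ligand far below them, a ligand difference of -1.30 (adjusted p = 0.456) beside the overall one of -0.97 ± 0.28.

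Kcnk5, a potassium channel, read 7.65 and 7.58 in parental cells, 8.02 and 7.87 with the vector, 8.14 and 8.04 with wild-type FLT3, and 9.28 and 9.23 with ligand added. The nearest arrays of cells with FLT3 alone and of vector cells were 0.01 apart, the arrays with ligand lay higher, and the ITD arrays ran from 8.30 to 9.73 (median 9.20). Avil, the actin-binding protein advillin, and Tfec, a transcription factor of the MITF family, ran against ligand. Avil had means of 11.64 with FLT3 alone and 10.48 with ligand, and Tfec 5.0 and 6.17, against 9.51 and 7.55 in receptor-free cells.

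Between vector and parental cells 451 genes (2.23%) were called, 257 higher and 194 lower. Among called and non-overlapping genes the largest differences between these lines were in Prss28 (-4.35), Prss34 (-4.23), Prg3 (-4.12) and Ear6 (-3.95), all lower in the vector line. At the edge of the non-overlap rule, Ntan1 (higher, 0.33 ± 0.09) and Zc3h12a (lower, -0.35 ± 0.09) lay just inside, and Mrps23 (higher, 0.33 ± 0.07) and Strip2 (lower, -0.60 ± 0.11) just outside. The lowest receptor array of Ntan1 and its highest receptor-free array both read 8.93.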

How the data were processed

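RNA from 17 cultures was hybridised to Affymetrix Mouse Exon 1.0 ST arrays. The authors deposited 1 log2 signal for each probe set. Per the submitters' processing notes these come from RMA (background correction, normalization between arrays, summary of probes) and Affymetrix Expression Console 1.1; the genome build is not given in the sources used here. Of 1256831 probe sets, 325444 had a gene symbol, and 6684 of these with several symbols were left out. Symbols were updated through a RefSeq table (18006 of 22296 current, 4227 updated, 63 kept). Probe sets were kept above 4.599 (log2) in their 17-array mean, which is the median of such means. That left 237584 probe sets and 20227 genes, with a median of 9 probe sets per gene and 1987 genes with 1. Array medians were 4.63 to 4.69, and precision is limited by the number of arrays.

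Group means of all 17 arrays in 5 groups were fitted with limma 3.58.1 in R 4.3.3 (lmFit, eBayes with trend; 12 residual degrees of freedom, 8 of them from the ITD arrays, and 4.49 prior degrees of freedom). The contrast was the mean of both receptor groups minus the mean of both receptor-free groups, two-sided, and p-values were adjusted over all genes by Benjamini-Hochberg, with 0.05 as the threshold for a call. On simulated data with 20227 genes, this contrast recovered 90% of genes changed by 1 and 100% of those changed by 2 (log2), with 13 false calls. The simulated arrays varied independently and held no differences shared by the arrays of a line. The 13 false calls therefore leave out errors that such differences would cause.

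Named were Flt3, the 15 largest rises and falls among called, non-overlapping genes with at least 3 probe sets, up to 4 genes from each of 21 lists, 4 genes each for the ligand and the vector difference, and genes at the edge of the rule; Kdm5d, Il3ra, Il2ra, Dusp5 and other list members beyond these were added after their values were seen. The members and lists were chosen with earlier results of these data known. Same-numbered arrays of different groups did not deviate together (correlations from -0.118 to 0.0917 across genes). Alternatives covered the filter, the summary of probe sets, normalization, trend, arrays, groups and lines.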

Additional observations from a re-analysis of the deposited data

Results flagged for a closer look

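Among the 9 ITD arrays, 1 array stood far from the other 8 for 12 of the named genes; chance alone flags about 1 in 20 groups, and each ITD array is a different mutant, so this is a difference between lines with no replicate. ITD line 5 (the lines are numbered in the order of the samples) was highest in Tespa1 (7.45, the next array 5.97) and in Nupr1 (10.76, next 9.59), and lowest in Prg2 (7.96, next 9.87). ITD line 7 was highest in Dusp2 (10.04, next 8.81) and lowest in Gata1 (7.55, next 8.77), Klf1 (6.30, next 7.29) and Ccna2 (9.87, next 10.41). ITD line 4 was lowest in Cish (8.09, next 9.01), Trem1 (4.40, next 5.32) and Insig1 (8.82, next 9.40) and highest in Itgb3 (9.44, next 8.04). ITD line 6 was highest in Chil1 (7.47, next 6.77). The value of line 5 in Nupr1 and that of line 7 in Dusp2 lay above all 4 receptor arrays.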

How the results depend on the processing

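None of the 99 genes chosen by rule reversed its direction under any alternative run. All but Mrps23 and Strip2 had no overlap between receptor and receptor-free arrays, so leaving out arrays or groups could not reverse them. Among the 277 called genes chosen by rule or held by any list, 10 reversed. Without the parental group the reversals were Ctss (-0.24), Cd74 (-0.07), Cst7 (0.36), Ccl5 (-0.004) and Rps21 (-0.06), and without the vector group Rtp4 (0.94), Ifi44 (0.43), Oasl2 (0.39) and Irf9 (0.02). Ifi44 also reversed with the 75th percentile filter (0.29), and Rpl23 with the median of probe sets (-0.04). Dusp5, which was not called, stood at 0.23 without the vector group. Of the 4372 genes called between receptor and receptor-free cells, other settings gave 6754 with the 8 arrays alone, 54 with the 12 lines as samples (the lone wild-type line being assumed to vary like the others), 2397 without the parental group and 2732 without the ligand group. Leaving out 1 array at a time gave 3187 (without wild-type replicate 1) to 4774 (without ITD line 7). The replicate number as a block with the 8 arrays gave 6514, and the numbers do not pair the samples. Non-overlapping genes numbered 5158, and 8328 without the vector group, 8501 without the parental group and 8053 without the ligand-free wild-type group, since fewer arrays overlap less by construction. Ligand calls were 0, with 1 after quantile normalization, 1148 with the 8 arrays alone, 864 with the replicate block and 0 to 4 with 1 array left out. Vector minus parental calls were 451, with 681 after quantile normalization, 2773 with the 8 arrays alone, 2418 with the replicate block and 105 (without vector replicate 1) to 764 (without ITD line 7) with 1 array left out; without parental replicate 1 or 2 or vector replicate 2 they were 149, 126 and 133. The cause of these shifts was not tested. Of the 99 named genes, 34 lost their call without the parental group, 14 without the ligand group, 13 without the vector group and 13 without the ligand-free wild-type group. With the 2 groups of 4 arrays alone, 96 of the 99 were called. The 9 ITD arrays set most of the spread, and arrays give no count of molecules.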

Other observations

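Genes that make proteins in mitochondria and that charge transfer RNA were higher in the receptor cells across most of their families. These families were listed in full by symbol after the values of the 54 genes called with lines as samples had been seen. Of 77 mitochondrial ribosomal proteins measured, 53 rose and none fell, with a median difference of 0.48 against 0.02 over all genes and 15% of all genes called higher. Mrps31 rose from a mean of 8.37 to 9.98 (1.61 ± 0.24), Mrps22 by 1.16 ± 0.14 and Mrpl2 by 1.06 ± 0.10 (limma, adjusted p = 0.000122, 1.76e-05 and 2.01e-06). After quantile normalization 43 rose and 1 fell, without the parental arrays 42 rose, and with lines as samples 3.

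Of 34 aminoacyl-tRNA synthetases, 25 rose and none fell (15% and 6.65% of all genes), with a median of 0.62. Lars, the leucine enzyme, rose by 1.18 ± 0.09, Cars, the cysteine enzyme, by 1.17 ± 0.08 and Farsb, a subunit of the phenylalanine enzyme, by 1.17 ± 0.08, and these were called with lines as samples as well. After quantile normalization 25 rose and 1 fell, and with lines as samples 3 rose. Of 59 cytosolic ribosomal proteins, 24 rose and none fell (15% and 6.65% of all genes), with a median of 0.18, and 7 rose without the parental arrays. With lines as samples limma called none of the 59, and 14 had an unadjusted p under 0.05.

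Other genes called with lines as samples were Tnfsf9, the ligand of 4-1BB (1.77 ± 0.12), Hspd1, the mitochondrial chaperonin (0.88 ± 0.06), Nop14 (1.25 ± 0.08) and Riok2 (1.19 ± 0.10), which act in ribosome assembly, and, among those lower, H2-Ea (-2.05 ± 0.20), P2rx4 (-1.92 ± 0.17) and Aatk (-1.70 ± 0.11). They were picked after their values were seen.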
